A study of Drosophila melanogaster with 4 samples.

Results

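The regions described here are the RPD3-enriched regions at the telomere-side ends of the 5 large chromosome arms of Drosophila melanogaster. RPD3 is the fly orthologue of the histone deacetylases HDAC1 and HDAC2, enzymes that remove acetyl groups from histone tails as part of co-repressor complexes. A region was counted as a member when its midpoint lay below 1000000 on 2L, 3L or X, above 20000000 on 2R, or above 26900000 on 3R, in positions of FlyBase release 5. The rule used position only, and no measured value. It gave 381 of the 7041 regions of replicate 1, 409 of the 7654 of replicate 2 and 882 of the 19364 of the combined list. The ends spanned 1.00 Mb on 2L, 3L and X, 1.15 Mb on 2R and 1.01 Mb on 3R, and made up 4.33% of the sequence of these arms. Of all regions on these arms, the ends held 5.62% (replicate 1), 5.52% (replicate 2) and 4.87% (combined list). The tip means the telomere-side end of the assembled arm, which is not the telomere itself.

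The libraries came from wild-type Oregon-R embryos of 14 to 16 h, a stage at which the organs differentiate. Chromatin was immunoprecipitated with the anti-RPD3 antibody Q3451 in 2 libraries, and each had 1 input library as its control. Each ChIP library had its own list of enriched regions, and the series had 1 further list, called the combined list. All the libraries are of one strain, genotype and age, so the comparison is of places in the genome and not of conditions. The reproducible set is made of those regions of the combined list that share 1 bp or more with regions of both replicates, and 242 of its 4481 regions lay in the ends. Depth is unknown, as no list gave read numbers. Separate embryo collections are not mentioned in the labels, and the spread between replicates may be technical.

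Fly telomeres are built of retrotransposon arrays, followed inward by repeats called telomere-associated sequences and then by gene-bearing euchromatin. Reporter genes inserted next to these repeats are often silenced, which is known as telomere position effect. In the gene order of release 6, the outermost protein-coding gene of 2L is l(2)gl, a cell-polarity tumour suppressor. The fourth from the tip of 2R is Kr, which encodes the gap transcription factor Krüppel, and the third from the tip of 3R is krz, a non-visual arrestin. These genes are named for orientation only, and no region was assigned to a gene. No sequence of the regions is printed, since a genome of release 5 was not used here.

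RPD3 regions were denser at the ends of 2L and 2R than along the rest of those arms, while at the ends of 3R and X no difference from the rest passed the test. On 2L the end had 78 regions per Mb in replicate 1 and 84 in replicate 2, against 45.4 and 49.3 per Mb in the rest of the arm. On 2R it had 112.5 per Mb in each replicate, against 70.4 and 73.8 per Mb in the rest. On these arms both replicates lay higher at the end, by more than they differed from each other.

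The end of 3L held 68 and 75 regions per Mb in replicates 1 and 2, against 51.6 and 55.4 in the rest of 3L. For 3R the values were 57.7 and 65.7 per Mb at the end and 60.4 and 67.9 in the rest. The X had 48 and 55 per Mb at its end and 53.8 and 61.3 in the rest. On 3L both replicates were higher at the end, by more than they differed from each other, though this arm did not pass the test over bins. Within each replicate the ends of 3R and X lay slightly below the rest of the arm, by less than the replicates differed from each other. The ratio of the end to the rest, as a mean of the replicates, was 1.71 ± 0.01 on 2L, 1.56 ± 0.05 on 2R, 1.34 ± 0.03 on 3L, 0.96 ± 0.01 on 3R and 0.895 ± 0.003 on X (SD, n = 2).

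**Figure D1:**
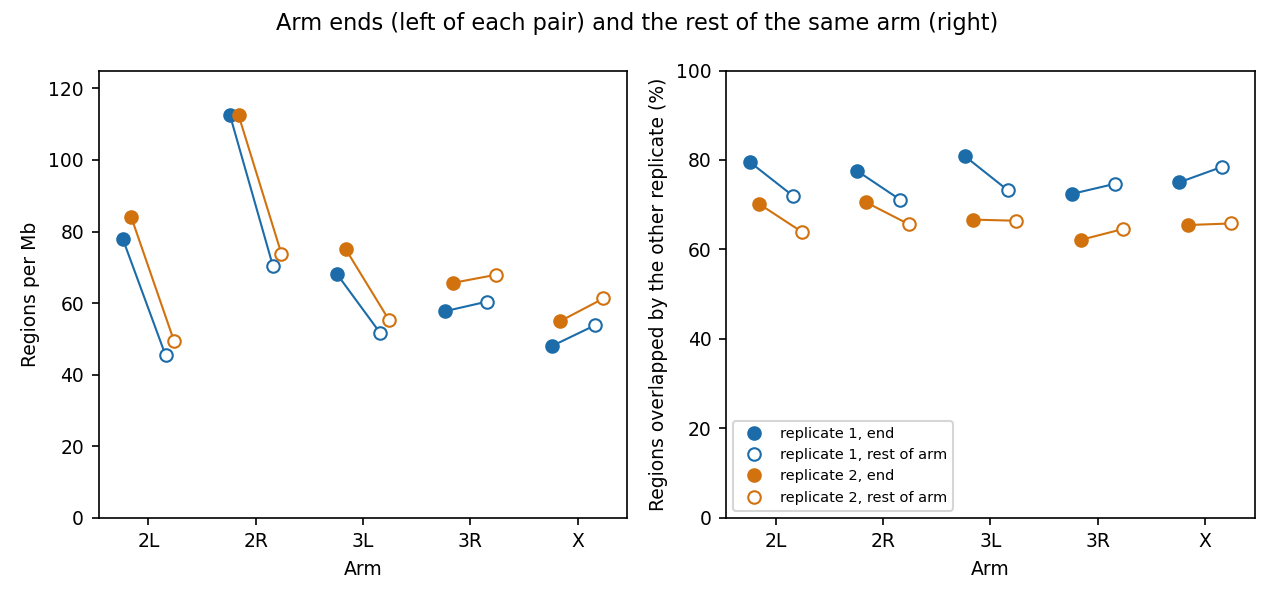
Regions per Mb (left) and percent of regions overlapped by the other replicate (right) on each arm. Filled circles are the arm end and open circles the rest of the arm, in blue for replicate 1 and orange for replicate 2. In the left panel the filled circles stand above the open ones on 2L, 2R and 3L and slightly below them on 3R and X.

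The difference in density was tested over bins of 100 kb, counted from the tip, with the spread between bins setting the error. Regions of both replicates were summed in each of 53 end bins and 1141 bins of the rest, and a quasi-Poisson regression compared the 2 kinds of bin within each arm. The ratio was 1.71 on 2L (95% interval 1.19 to 2.46, adjusted p = 0.01, n = 231 bins). It was 1.56 on 2R (1.19 to 2.05, adjusted p = 0.0077, n = 212 bins). Both passed the threshold of 0.05 after Benjamini-Hochberg adjustment over the 5 arms. The other arms did not pass. The ratio was 1.34 on 3L (0.92 to 1.94, adjusted p = 0.21, n = 246 bins), 0.96 on 3R (0.66 to 1.39, adjusted p = 0.83, n = 280 bins) and 0.895 on X (0.56 to 1.42, adjusted p = 0.8, n = 225 bins). The intervals of 3R and X include densities at the end well above and well below those of the rest. In the combined list the ratio on 2R was 1.14 (0.96 to 1.37) and did not pass, while on 2L it was 1.41 and passed. With the outermost 500 kb alone as the end neither arm passed, with 1.82 on 2L and 1.35 on 2R.

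Over all arms together the ends had 1.29 times the density of the rest (1.102 to 1.513, adjusted p = 0.0063 over the 4 measures tested over all arms, n = 1194 bins). The ratio was 1.21 without 2L (1.02 to 1.45), 1.19 without 2R (0.98 to 1.45) and 1.05 without both (0.84 to 1.33). None of these passed after adjustment. Omitting both was chosen after the ratios of the arms were seen. As 2L and 2R had the highest ratios, a lower value without them was bound to follow. Whether the arms differ in the ratio was tested as an interaction of arm and end, with F = 2.36 and p = 0.051 (n = 1194 bins), which misses the threshold. In bins of 50 kb the same test gave F = 3.19 and passed. Bins next to each other were alike, with a correlation of 0.33 between residuals of neighbours, and the p-values over bins are therefore too small. They hold for these 2 libraries and say nothing of other embryo collections.

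Set against windows of the same length counted inward, the end of 2R held the most regions of its 18 windows in each replicate. With 129 regions in each, it lay above the next highest window, the sixteenth from the tip, which had 112 and 126. In the combined list the end of 2R ranked 4 of 18, with 233 regions against 254 in the highest window. The end of 2L ranked 2 of 23 windows in each replicate, behind the window from 6 to 7 Mb with 86 and 96 regions. The end of 3L ranked 5 and 3 of 24. On 3R it ranked 14 of 27 in each, and on X 15 and 14 of 22.

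On X and 3L the densest window of the arm in both replicates was the one that borders the end. The first Mb of X held 48 regions in replicate 1 and 55 in replicate 2, against 111 and 128 in the second. The first Mb of 3L held 68 and 75 regions, against 93 and 105 in the second. The denser windows lie outside the ends as defined, and they were singled out after their counts were seen. In the combined list the densest windows were others, window 19 from the tip of X with 196 regions and window 23 of 3L with 201.

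**Figure D2:**
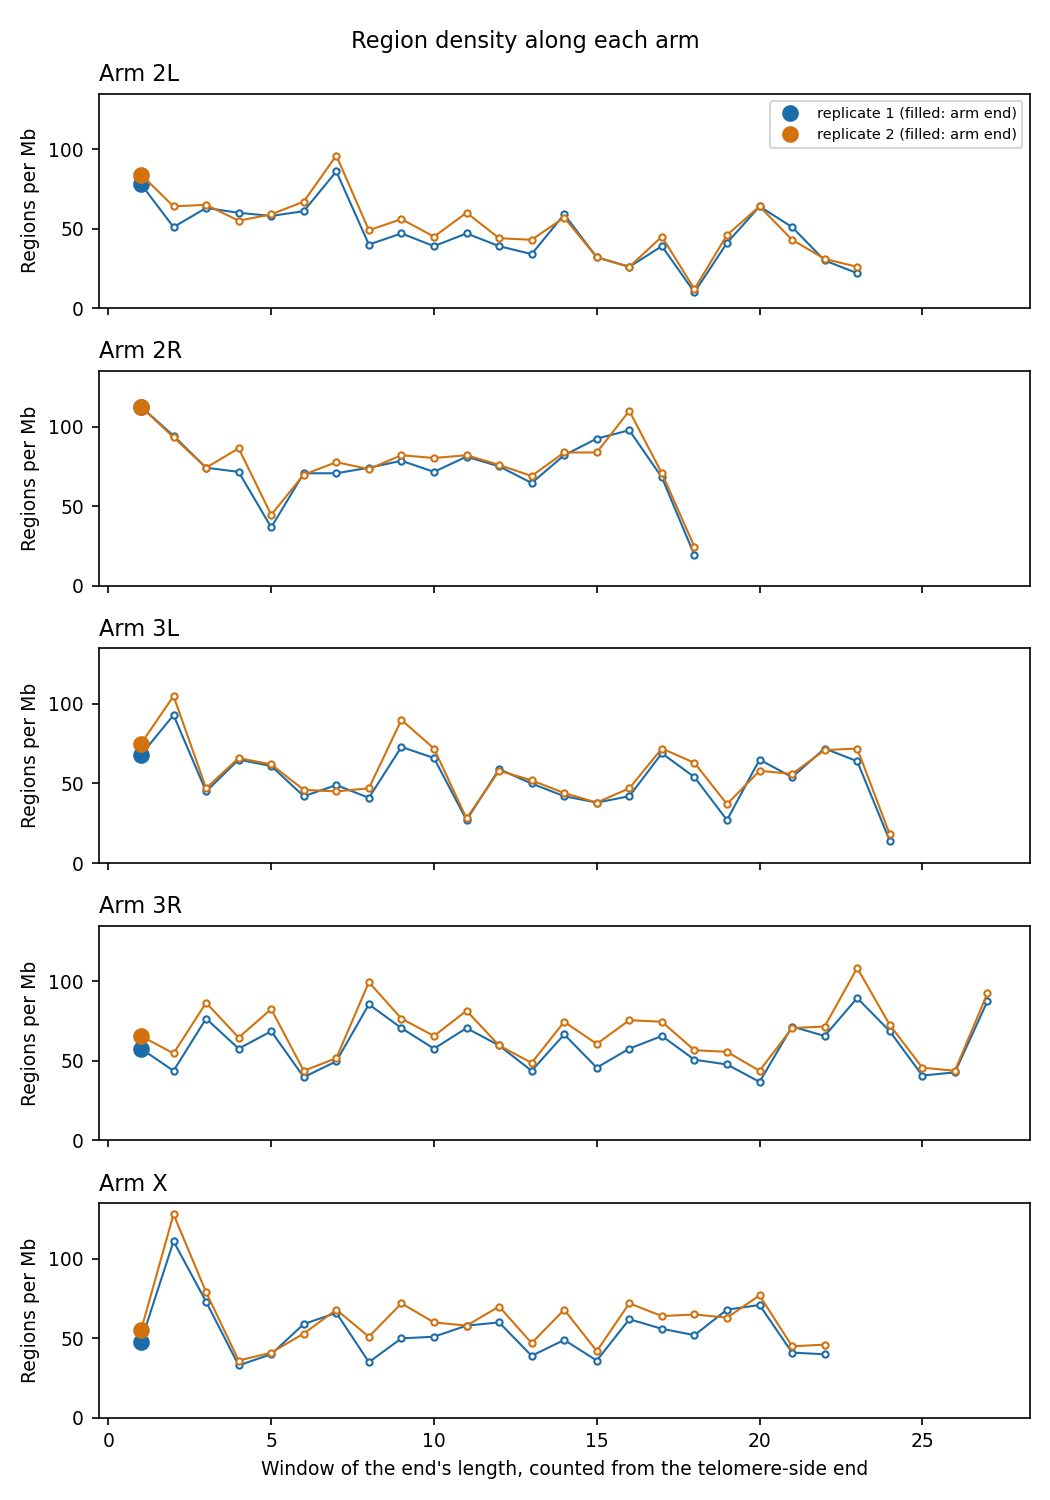
Regions per Mb in successive windows of the same length as the arm end, counted from the telomere-side tip, for each arm and replicate. Filled circles mark the arm end and open circles the rest of the arm. The end is the highest point on 2R in both replicates, and on 3L and X the second window stands above the end.

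Within the ends, the outermost 100 kb held few regions. Over the 5 arms the outermost 100 kb had 7 regions in replicate 1 and 10 in replicate 2, which is 14 and 20 per Mb. From 100 to 200 kb there were 42 and 52 per Mb, and from 200 to 300 kb 88 and 80 per Mb. The rest of the arms had 56.2 and 61.5 per Mb. In this sum over arms the first 200 kb were below the rest of the arms and the next 100 kb above it. The arms differed: the first 200 kb of 2L held 11 regions in each replicate, while those of 2R held 2 in each.

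With the outermost 200 kb alone taken as the end, a choice made after these counts were seen, the density ratio to the rest of the arms was 0.54 (95% interval 0.32 to 0.93). This interval lies below 1, but the ratio did not pass after adjustment over the 4 measures. With those 200 kb left out, the ratio over all arms was 1.47 (1.25 to 1.73) and passed. On 2R it was then 1.86 (1.42 to 2.44) and on 2L 1.85 (1.25 to 2.73), and both passed. On 3R and X the ratio then lay at 1.06 and 1.02, on the other side of 1 from the values over the whole end.

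The distance from the tip to the first called region differed between arms and was nearly the same in both replicates. On X the first region began 6144 bp from the tip in replicate 1 and 6191 bp in replicate 2, at 6145 to 8374 with a score of 0.83 and at 6192 to 8200 with a score of 0.81. On 3R it was 10504 bp and 10606 bp away, at 27892267 to 27894549 (score 0.76) and 27892597 to 27894447 (score 0.51). These pairs overlap each other, so on X and 3R both replicates found the same outermost place.

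On 2L the first region lay 66083 bp and 66369 bp from the tip, at 66084 to 68077 (score 0.63) and 66370 to 67747 (score 0.54). On 3L it lay 130698 bp and 130535 bp away, at 130699 to 132058 (score 0.54) and 130536 to 132961 (score 0.85). The outermost regions of 2L and 3L were also found by both replicates. On 2R the first regions, at 20982634 to 20984165 in replicate 1 and 20988749 to 20990199 in replicate 2, lay 162543 bp and 156509 bp from the tip and did not overlap a region of the other replicate. The first reproducible region of 2R began 205869 bp from the tip.

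The combined list reached further out on 2L, 2R, 3L and X. Its first region began 222 bp from the tip on X, at 223 to 1337, with a score of 1.76. On 2L it began 17553 bp from the tip with a score of 0.22, on 2R 30538 bp with 0.53 and on 3L 68935 bp with 0.41. None of these regions was overlapped by both replicates. On 3R its first region, at 27892156 to 27894570, was the one that both replicates also found.

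Bin by bin, the arms had different profiles. On 2L the 10 bins from the tip inward held 3, 8, 13, 3, 13, 13, 1, 5, 15 and 4 regions in replicate 1. The same bins held 2, 9, 15, 6, 14, 15, 0, 2, 14 and 7 in replicate 2. In both replicates the same 4 bins held 13 to 15 regions, the other bins held 9 or fewer, and the bin from 600 to 700 kb was the poorest. A bin of the rest of 2L held 4.54 ± 3.52 regions in replicate 1 and 4.93 ± 3.61 in replicate 2 (SD over 220 bins).

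On 2R the 11 full bins held 0, 2, 14, 17, 20, 13, 12, 11, 7, 16 and 10 regions in replicate 1, and 0, 2, 8, 19, 15, 14, 11, 11, 11, 17 and 16 in replicate 2. After the first 200 kb every full bin of the 2R end held at least 7 regions in each replicate, which is close to the mean of 7.04 and 7.38 per bin in the rest of 2R. The last stretch of 46.7 kb up to the boundary held 7 and 5 regions. The fullest bin over both replicates was that from 300 to 400 kb, with 36.

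The 3L bins held 0, 6, 11, 9, 4, 5, 14, 3, 9 and 7 regions in replicate 1, and 0, 8, 12, 13, 2, 10, 12, 7, 9 and 2 in replicate 2. On 3R replicate 1 had 3, 3, 6, 10, 13, 3, 5, 6, 6 and 3 regions and replicate 2 had 4, 5, 5, 13, 15, 3, 7, 5, 7 and 2. The bins from 300 to 500 kb of 3R were the fullest in both. On X replicate 1 had 1, 2, 0, 4, 4, 11, 8, 3, 7 and 8 and replicate 2 had 4, 2, 0, 7, 7, 10, 10, 2, 6 and 7, so that the outer 500 kb were poorer than the inner 500 kb. Over both replicates the fullest bin was that from 800 to 900 kb on 2L with 29, from 600 to 700 kb on 3L with 26, from 400 to 500 kb on 3R with 28 and from 500 to 600 kb on X with 21. The poorest full bins were the first of 2R and 3L and the third of X, with 0, that from 600 to 700 kb on 2L with 1, and that from 900 to 1000 kb on 3R with 5.

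Summed over both replicates, 5 of 10 full end bins on 2L, 8 of 11 on 2R and 5 of 10 on 3L were at or above the upper quartile of the bins of the rest of the arm. On 3R and X it was 2 of 10 each. In the rest of these arms 25.5% to 28.5% of bins were at or above it, since counts tie. Over the 51 full end bins the counts of the replicates had a Pearson correlation of 0.885 and a Spearman correlation of 0.89, as a description of bins of one pair of libraries. They differed by at most 1 region in 26 bins and by at most 6 in any. Counts had no common trend with distance from the tip, with Spearman correlations of 0.12 on 2L, 0.33 on 2R, 0.10 on 3L, -0.02 on 3R and 0.63 on X over 10 or 11 bins each.

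**Figure D3:**
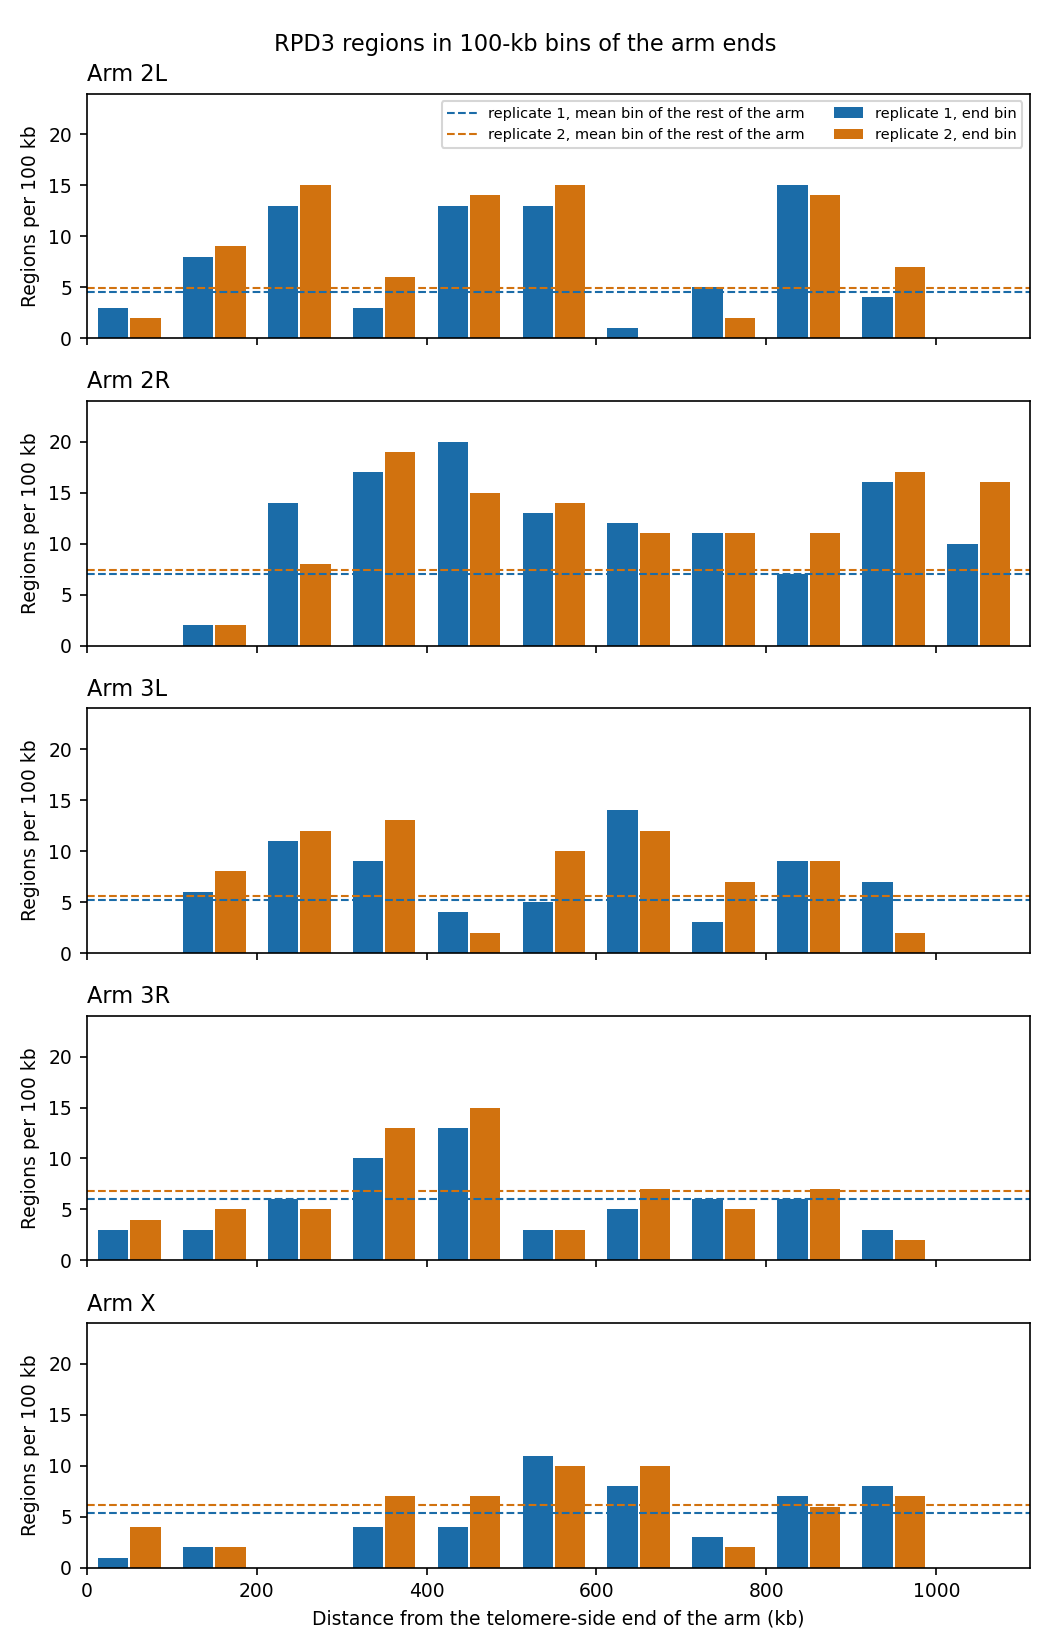
Regions per 100-kb bin of each arm end against distance from the telomere-side tip, for replicate 1 (blue) and replicate 2 (orange), full bins only. Dashed lines are the mean bin of the rest of the arm in each replicate. Bars are missing where no region was called, as in the first bin of 2R and 3L and the third bin of X, and most bars of 2R beyond 200 kb stand above the lines.

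Long stretches without a region lay inside some ends. On X, replicate 1 had none from 175 to 369 kb from the tip (195 kb) and replicate 2 none from 174 to 318 kb (144 kb). The combined list had a shorter gap there, of 68.1 kb. On 2L the longest gap was 95.7 kb in replicate 1, from 618 to 714 kb, and 145 kb in replicate 2, from 596 to 741 kb. Both gaps therefore recurred at nearly the same place in both replicates. On 2R the longest gap between regions was 58.9 kb and 45.5 kb, at different places in the replicates. The stretch from the tip of 2R to the first region, not counted as a gap, was longer, with 162543 bp and 156509 bp. The longest gaps in the rest of the arms were longer, from 225 to 480 kb in replicate 1 and from 200 to 353 kb in replicate 2. The rest of each arm is many times as long as its end, so a longer maximum is likely there.

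Between the gaps, regions at the ends were close to each other. The median gap from one region to the next was 3567 bp and 3236 bp on the 2L end in replicates 1 and 2, against 6293.5 bp and 5997 bp in the rest of 2L. On 2R it was 3010.0 bp and 3403.5 bp at the end, against 5235 bp and 4607.5 bp in the rest. On X, where the end was no denser, it was still shorter at the end, with 3316 bp and 3515 bp, against 5126 bp and 4516 bp in the rest. On 3R it was 6376 bp and 4583 bp at the end, against 5344 bp and 4983 bp in the rest, so the replicates went opposite ways.

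Regions of the ends were called in the other replicate about as often as those elsewhere. At the ends 295 of 381 regions of replicate 1 (77.4%) and 277 of 409 of replicate 2 (67.7%) were overlapped by the other list, against 73.9% and 65.3% in the rest. Over the 5 arms as a whole the shares were 74.1% and 65.4%. A quasi-binomial regression over bins gave an odds ratio of 1.17 for the end, which did not pass. In this quasi-binomial regression the 95% interval was 0.92 to 1.49 (adjusted p = 0.33, n = 1194 bins less those without a region). Shares by arm ran from 72.4% on 3R to 80.9% on 3L in replicate 1 and from 62.1% on 3R to 70.5% on 2R in replicate 2.

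The outer 500 kb of the ends had the higher shares in sum. Within 500 kb of the tip 82.8% of regions in replicate 1 and 71.1% in replicate 2 were shared, against 71.8% and 65.2% from 500 to 1000 kb. On 3L the outer stretch had 96.7% and 77.1% in replicates 1 and 2 and the inner one 68.4% and 57.5%. On 2L, too, the outer stretch had the higher share in both replicates, with 90% and 76.1%, against 68.4% and 63.2% in the inner one. On 2R, 3R and X the replicates went opposite ways. On 2R the outer stretch had 73.6% and 79.5% in replicates 1 and 2 and the inner one 78.0% and 67.2%, and on 3R the outer one had 77.1% and 61.9% and the inner one 65.2% and 62.5%. The outer stretch of X had 81.8% of 11 regions shared in replicate 1 and 50% of 20 in replicate 2, and its inner one 73.0% of 37 and 74.3% of 35. The stretches were not tested against each other. With the outer 500 kb alone as the end, the odds ratio to the rest of the arms was 1.48 (1.02 to 2.14), which did not pass after adjustment.

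In the combined list, 242 of 882 end regions (27.4%) were overlapped by both replicates and 447 (50.7%) by neither, against 24.02% and 54.4% in the rest. Over the 5 arms 24.2% were overlapped by both. The share was highest on 2R, with 35.2% at its end and 24.97% in the rest, and lowest on 3R, with 20.5% at its end and 23.4% in the rest. The 2R end was also the most covered by replicate regions, with 25.6% and 28.9%, against 15.6% and 17.7% in its rest. Its combined regions were wider, with medians of 2043 bp at the end and 1644 bp in the rest. Overlap shares, here and between the replicates, were not adjusted for coverage or width, and their part in these shares was not tested. End regions found by both were wide, with a median of 4142 bp, and those found by neither had a median of 1334 bp. No source used here states how the combined list was built, so it is no independent check of the replicates.

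Scores at the ends were like those of the rest of the arm. The score is the authors' value for each region, on a log2 scale that was inferred from the values, and is compared within a list only. The median over all end regions was 0.80 in replicate 1 and 0.79 in replicate 2, against 0.80 and 0.79 in the rest. In the regression over bins the difference, end minus rest, was 0.01 (adjusted p = 0.64, n = 1194 bins less empty ones). Its 95% interval was -0.02 to 0.03, so a mean shift above 0.03 in either direction lies outside the interval. By arm the difference of medians in the replicate lists was largest on 2R, with 0.03 in each replicate, and on X, with -0.03 and -0.05, where the median at the end was 0.93 and 0.88 and that of the rest 0.96 and 0.93. In the reproducible set it was largest on 2L, with medians of 0.60 at the end and 0.67 in the rest, while on the other arms the end was slightly higher. The X end shared the higher score level of its chromosome.

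The highest score at an end was 1.46 in replicate 1 and 1.61 in replicate 2, both on X, and in the rest of the arms, which hold many more regions, 3.20 and 3.11. Of the end regions, 21.8% in replicate 1 and 21.0% in replicate 2 lay in the top score quartile of their list, against 25.2% and 25.1% of the regions in the rest. When the reproducible regions of the arms were ranked by the mean percent rank of their replicate scores, 1 of the top 44, 11 of the top 219, 21 of the top 438 and 58 of the top 1095 were at an end. As shares these are 2.27%, 5.02%, 4.79% and 5.30%, beside the 5.52% of all 4381 ranked regions that lay at an end.

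In the combined list the 3 highest scores at an end were all on X: 326511 to 328320 with 3.20, 451818 to 453056 with 1.83, and the outermost region with 1.76. The highest score of that list in the rest of the arms was 3.73. None of the 3 was overlapped by a region of replicate 1 or of replicate 2. The strongest of them lay in the stretch of X where replicate 1 had no region. They were singled out after their scores were seen.

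Widths in the replicate lists were also alike. The median region was 1910 bp at the ends and 1879 bp in the rest in replicate 1, and 1917 bp and 1943 bp in replicate 2. Mean width in the regression was 1.03 times that of the rest, with a 95% interval of 0.98 to 1.07. The regression gave adjusted p = 0.33 (n = 1194 bins less empty ones). In the combined list end regions were wider, with medians of 1806.5 bp at the ends and 1595 bp in the rest, and a ratio of 1.13 (1.07 to 1.19, adjusted p = 3.4e-05, n = 1194 bins), so the call depends on the list. In the reproducible set the median width was 4142 bp at the ends and 3466 bp in the rest, and it was higher at the end on each of the 5 arms. That set is drawn from the combined list and holds its wider regions, so it is no separate support. In both replicate lists the median was lower at the end on 2R and 3R and higher on 3L and X, while on 2L the replicates went opposite ways. The ends were covered to 17.0% and 20.2% by regions of replicates 1 and 2, against 12.8% and 14.8% of the rest. On 2R the covered share was 25.6% and 28.9% at the end, against 15.6% and 17.7% in the rest, and on 2L and 3L it was also higher at the end in both replicates. On 3R it was 14.0% and 15.9% at the end, against 13.8% and 16.1% in the rest. On X it was lower at the end, with 11.3% and 14.4%, against 13.0% and 15.7% in the rest. Regions of 6 kb or more made up 1.31% of those at the ends and 1.84% of the rest in replicate 1, but 4.16% and 2.88% in replicate 2 and 6.35% and 3.67% in the combined list, so the direction differed between the replicates.

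**Figure D4:**
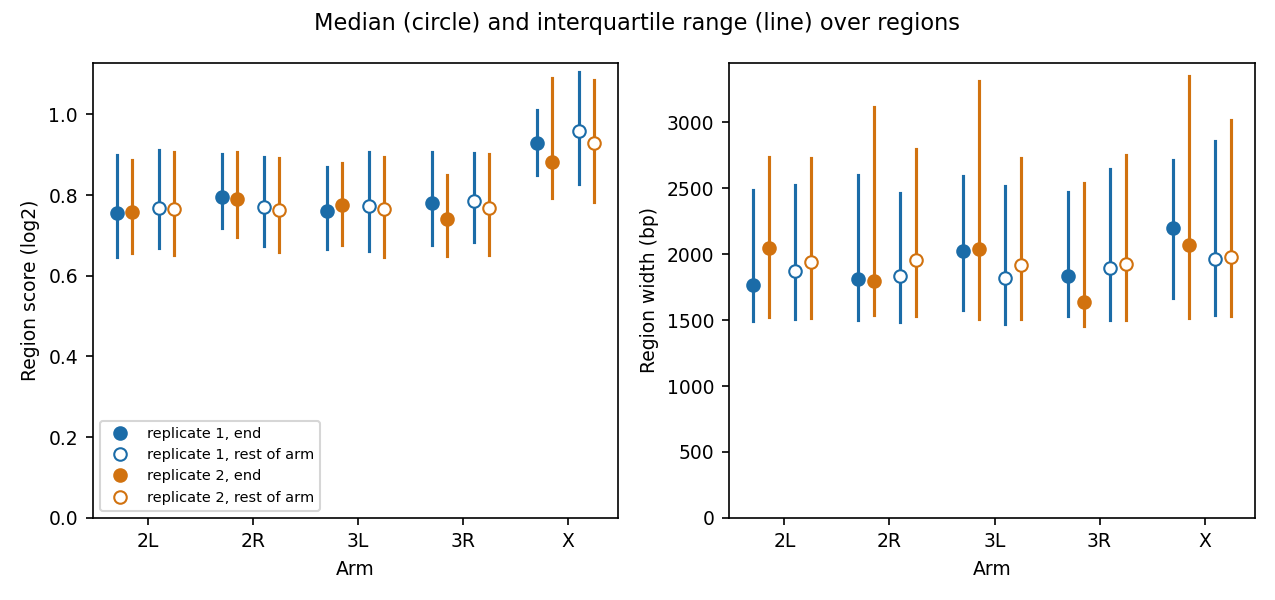
Score (left, log2) and width in bp (right) of regions at the arm end (filled) and in the rest of the arm (open), for replicate 1 (blue) and replicate 2 (orange). Circles are medians and lines interquartile ranges over regions. The ranges of end and rest overlap on every arm, and X lies above the other arms in score at its end and in its rest.

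The highest-ranked region of the ends was on X from 934079 to 938517, with best scores of 1.46 in replicate 1 and 1.54 in replicate 2, which ranked it 25 of 4381. Next on X came 521837 to 525649, with 1.44 and 1.37, and directly beside it 507781 to 521241, with 1.30 and 1.42. The region from 507781 was the widest reproducible region at any end, at 13.5 kb, and held 4 regions of replicate 1 and 3 of replicate 2. These neighbours lie in the bin of X, from 500 to 600 kb, that was the fullest of that end over both replicates.

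On 2R the first-ranked region was 20485680 to 20489752, 659 kb from the tip, with scores of 1.38 and 1.48 and rank 51. It was followed by 20286996 to 20292300, with 1.31 and 1.19, and by 20055914 to 20064744, with 1.17 and 1.22. The widest region of the 2R end, 20622445 to 20633995, spanned 11.6 kb with 4 regions of replicate 1 and 2 of replicate 2, but its best scores were 0.95 and 0.86, a rank of 1609. On 2R the widest place was thus not among the strongest.

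On 2L the first-ranked region, 849735 to 854665, scored 1.399 and 1.388 and ranked 68. The second, 823999 to 828283, scored 1.38 and 1.26 and lay in the same 100-kb bin. The third, 559019 to 570306, with 1.17 and 1.405, was also the widest of that end, at 11.3 kb, with 3 regions of each replicate. On 3L the first was 256196 to 266047, with scores of 1.275 and 1.396. The widest of 3L, 195324 to 207402, spanned 12.1 kb and ranked next, with 1.404 in replicate 1 and 1.12 in replicate 2. The third of 3L was 592276 to 594999, with 1.11 and 1.23.

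On 3R the first-ranked region was also the widest, from 27037673 to 27049565, or 11.9 kb. Each replicate had a single region over it, with scores of 1.301 and 1.3997. The second, 27568765 to 27576671, scored 1.29 in each replicate, and the third, 27402854 to 27407860, scored 1.14 and 1.32. Over all 242 reproducible end regions the median score difference, replicate 1 minus replicate 2, was -0.005 with an SD of 0.17 over regions, and replicate 1 was higher in 117. The Spearman correlation of these scores over the 242 regions was 0.70, a description of one pair of libraries.

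Next to the boundary of the ends, the last region inside in replicate 1 had a score of 0.66 on 2L, 0.56 on 2R, 0.76 on 3L, 0.91 on 3R and 0.88 on X. The first region outside had 1.04 on 2L, 0.86 on 2R, 0.85 on 3L, 0.80 on 3R and 0.96 on X. In replicate 2 the last region inside scored 0.86 on 2L, 0.73 on 2R, 0.90 on 3L, 1.03 on 3R and 0.94 on X, and the first outside 0.70 on 2L, 0.89 on 2R, 1.245 on 3L, 0.92 on 3R and 0.79 on X. Neither side was higher on every arm.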

How the data were processed

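RPD3 ChIP was sequenced in 2 libraries and input in 2, grouped by the sample titles. No list of the inputs alone was used. Reads were aligned with Bowtie 0.12.7, per the submitters' processing notes. Per the file headers, positions follow FlyBase release 5. Not given in the sources used here were the region caller, its thresholds and the making of the combined list. The deposited score was taken as log2, inferred from the deposited values, whose differences are log2 of ratios of whole numbers, and read as ChIP over input. Start and end positions are the authors'. Numbers of regions can change with the unknown depth.

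Bins of 100 kb were counted from the tip, and the last end bin of 2R and of 3R was partial. Density was fitted by quasi-Poisson regression with bin length as offset, overlap (at least 1 bp) by quasi-binomial regression, and mean score and mean log2 width per bin by linear regression weighted by region number. Each all-arm fit had arm as a term, and both replicates were summed or averaged in a bin. Bins without a region were left out of the fits of overlap, score and width. P-values were adjusted by Benjamini-Hochberg over the 5 arms for density, and over 4 measures for all arms. In the combined list and the reproducible set overlap was not fitted, and the all-arm adjustment was over density, score and width. The fits were tested on simulated data with bins drawn independently, so that test could not show the effect of alike neighbouring bins. The 2 depleted regions of the combined list were left out.

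Named regions and bins followed a rule: on each arm end the outermost region of each list, the 3 reproducible regions with the highest mean percent rank of replicate scores (best score where several overlapped), the widest, and the fullest and poorest bin. The regions, tests and lists were chosen with earlier results of these data known. Alternatives covered bin size, the extent of ends and rest, merging, score, overlap and the lists, arms and replicates used. Tools were matplotlib 3.10.9, statsmodels 0.14.6, scipy 1.17.1, pandas 2.3.3 and numpy 2.4.6 under Python 3.11.15.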

Additional observations from a re-analysis of the deposited data

How the results depend on the processing

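Of 144 values under other settings, 120 had the direction and call given above, 10 lost the call, 4 gained one and 10 changed direction. Bin size and the exact binomial test left every density ratio unchanged, and the interaction has no direction. Those values could therefore change only in call, and their direction is no evidence of stability. Bins of 1 Mb, the outermost 200 kb as the end and the omission of both 2L and 2R were chosen after seeing the data. The density ratio over all arms did not pass with the outermost 500 kb as the end (1.21), with regions at or above the median score (1.26), in bins of 1 Mb (1.29), or without 2L (1.21), 2R (1.19) or both (1.05), and turned to 0.54 in the outermost 200 kb. For 2L it did not pass in the outermost 500 kb (1.82) or at or above the median score (1.62). For 2R it did not pass in the outermost 500 kb (1.35) or in the combined list (1.14). For 3L it passed in an exact binomial test that treats regions as independent (1.34). For 3R it turned to 1.20 in the outermost 500 kb, 1.06 without the outermost 200 kb and 1.03 in the combined list, and for X to 1.02 without the outermost 200 kb. The interaction of arm and end passed in bins of 50 kb (F = 3.19) and with regions within 200 bp merged (F = 2.395). The score difference turned to -0.0134 in the outermost 500 kb, -0.0135 at or above the median score, -0.0042 without 2R, -0.0038 with median scores and -0.0021 without 2L and 2R. The width ratio passed in the combined list (1.13). The cause of these changes was not tested. On one replicate alone the density ratio was 1.28 to 1.30 over all arms, 1.70 to 1.72 on 2L, 1.53 to 1.60 on 2R, 1.32 to 1.35 on 3L, 0.95 to 0.97 on 3R and 0.893 to 0.897 on X. The score difference was then 0.0044 to 0.0055, the width ratio 1.02 to 1.03, the odds ratio of overlap 1.11 to 1.26 and the interaction F 2.19 to 2.23. No paired analysis was possible because no region lists of the inputs were used here. Unknown depth limits every count of regions, and an absent region is not shown to be free of RPD3.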
